A study of Mus musculus with 9 samples.

Results

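Genes that make, store, release and burn fatty acids were followed in non-epithelial cells of the mammary gland from calorie-restricted (CR) and ad libitum-fed mice. The list held 57 genes chosen by name from the known steps of fatty acid metabolism, and 52 of them had a value among the 11063 genes measured. Fasn, Elovl6, Gpam, Ppara and Hadha were not analysed here. For 8 weeks CR mice received 65% of what ad libitum-fed mice ate, a share taken from the sample labels, whereas the study's methods state a somewhat higher one. All mice were FVB/N females that entered the study at 6 weeks of age, and 5 CR mice (numbered 1 to 5) were set against 4 ad libitum-fed mice (numbered 2 to 5). The study asked which signal of these cells passes the dietary state to mammary stem cells.

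Each library came from 1 mouse and from 15000 cells of the #4 glands that were negative for the epithelial surface markers CD24 and CD49f, after a magnetic step that depletes endothelial, some hematopoietic and some fibroblast cells. From 30 ng of RNA, molecules were counted by their identifiers at the 3′ end of each gene. Values are normalized counts, that is, counts of molecules divided by each library's size factor, and a count of 0 allows up to 3 counts, or 1.55 to 5.85 normalized counts depending on the library. Total counts were 785301 to 1485963 in the CR libraries and 382877 to 817030 in the ad libitum libraries, so that low genes were measured more precisely in CR mice. The libraries held a mixture of cell types. Summed fibroblast markers, led by Dcn and Col1a2, reached 10924 to 13660 in CR libraries and 5887 to 11328 in ad libitum libraries. Of these 10 markers 4 were called higher in CR, against 7.98% of all genes tested. All 10 measured T cell markers were lower in CR, with sums of 98.6 to 210.1 in CR libraries and 1507 to 2628 in ad libitum libraries. The 4 tested mast cell markers were lower too, with sums of 29.1 to 133.4 in CR libraries and 344.8 to 630.1 in ad libitum libraries. Of all genes tested, 9.14% were called lower. Epithelial markers stayed low, at 7.70 to 27.4 summed over the 3 with a value in CR and 15.3 to 25.9 in ad libitum-fed mice, with Krt19 the highest.

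Fatty acids are built in the cytosol from acetyl-CoA, which ATP citrate lyase supplies, and are then elongated and desaturated at the endoplasmic reticulum. They are stored as triglycerides in lipid droplets coated by perilipins and are released again by lipases. Carnitine palmitoyltransferases pass them into mitochondria, where acyl-CoA dehydrogenases start beta-oxidation and hand electrons to the electron transfer flavoprotein. Peroxisome proliferator-activated receptors (PPARs) sense fatty acids and switch on several genes of storage and oxidation. In the virgin gland the large fat store lies in the adipocytes of the stroma, and the secretory epithelium makes milk fat only in pregnancy and lactation.

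Of the 52 genes, 43 reached 10 normalized counts in at least 4 libraries and were tested with limma on log2(normalized count + 1), with Benjamini-Hochberg adjustment over all 6815 genes tested. All log2 fold changes are on that scale, as CR over ad libitum, and understate the change of low genes. The threshold for calling a gene was an adjusted p of 0.05 or less. Called were 8 of the 43, of which Plin2, Angptl4, Acadl, Fads1, Cpt1c and Elovl1 were higher in CR mice and Dgat1 and Elovl5 were lower. Among all genes tested, 17.1% were called, 7.98% as higher in CR and 9.14% as lower. The 8 called genes, 18.6% of those tested here, are a share close to that background and no result about the list as a whole. With 6 genes, 14.0% were higher in CR, and with 2 genes, 4.65% were lower. The median log2 fold change was 0.25 over the 43 genes, with 28 positive, and 0.07 over all genes tested. The values of the diets did not overlap for 7 of the 43 genes, and among all genes tested this was the case for 16.9%. The called shares of all genes apply equally to each step below, whose few genes give no result about the step.

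**Figure D1:**
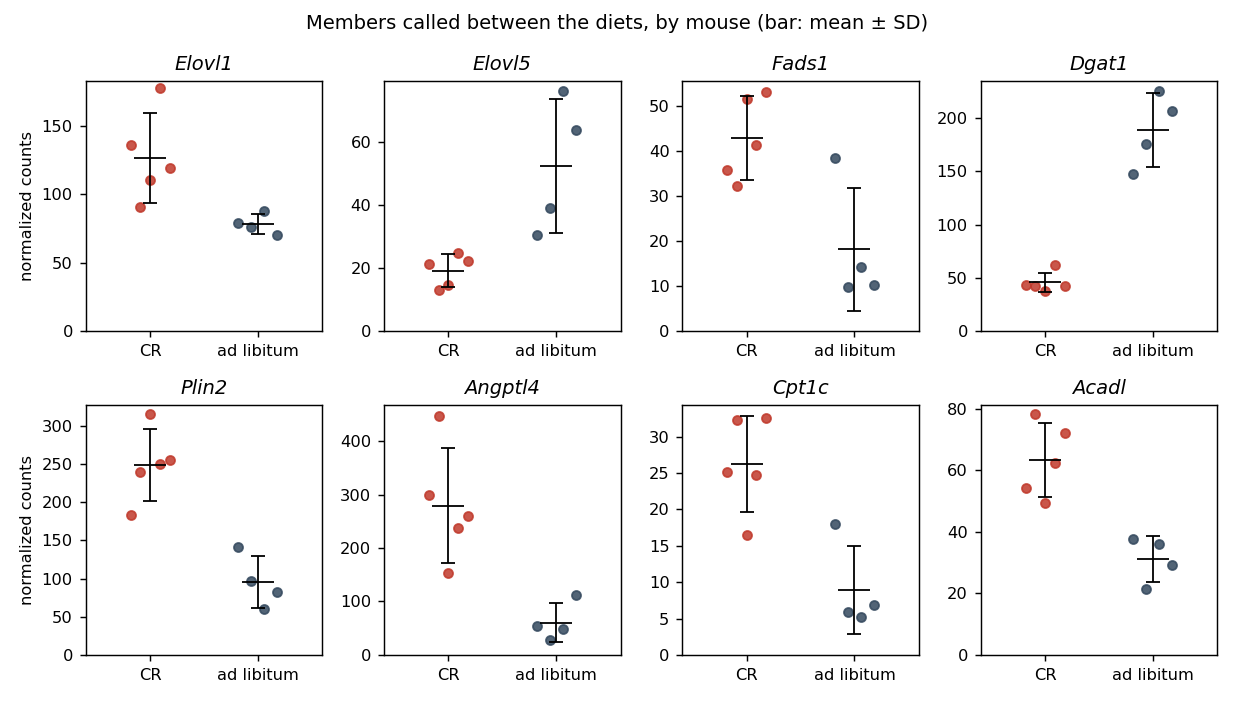
Normalized counts (y axis, linear, from 0) of the 8 called genes in each CR mouse (left) and each ad libitum-fed mouse (right), with the mean and SD as bars. Dgat1 and Elovl5 lie lower in every CR mouse than in any ad libitum-fed mouse, Plin2, Angptl4, Acadl and Elovl1 lie higher, and in Fads1 and Cpt1c the ad libitum-fed mouse 2 reaches into the CR values.

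The promoters of called genes are shown because genes moving in either direction can be set side by side at their start sites. RefSeq promoters (GRCm38.p6) matched 44 of the 52 genes and 5 of the 8 called ones. The 100 bases before the first start site of each are printed 5′ to 3′, with capitals marking the CCAAT box or its reverse complement. They lie at chr4:118427993-118428092 (plus strand, Elovl1), chr9:77917265-77917364 (plus strand, Elovl5), chr4:86670060-86670159 (minus strand, Plin2), chr7:44974852-44974951 (minus strand, Cpt1c) and chr1:66863310-66863409 (minus strand, Acadl).
Elovl1: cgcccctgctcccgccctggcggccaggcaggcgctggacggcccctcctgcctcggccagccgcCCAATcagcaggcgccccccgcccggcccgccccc
Elovl5: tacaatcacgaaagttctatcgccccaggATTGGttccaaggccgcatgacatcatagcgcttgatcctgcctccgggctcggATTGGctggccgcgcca
Plin2: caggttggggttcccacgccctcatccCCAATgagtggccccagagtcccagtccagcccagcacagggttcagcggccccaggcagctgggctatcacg
Cpt1c: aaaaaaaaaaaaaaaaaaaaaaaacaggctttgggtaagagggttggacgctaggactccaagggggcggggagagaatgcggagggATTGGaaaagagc
Acadl: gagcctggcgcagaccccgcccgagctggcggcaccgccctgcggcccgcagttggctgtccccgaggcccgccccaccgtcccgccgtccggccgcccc

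The Elovl5 promoter, of a gene lower in CR, held 2 CCAAT boxes, at 71 and 17 bases before the start. Of the genes higher in CR, Plin2, Cpt1c and the first of the 2 start sites of Elovl1 held 1 each, and Acadl held none in the 250 bases before its start. Over those 250 bases and both strands, CCAAT was present in 44.4% of the 54 promoters of listed genes and in 33.8% of all 32851 promoters. The E-box, CACGTG, to which SREBP and ChREBP type factors can bind, was present in 9.26% of the listed genes' promoters and 6.02% of all promoters, and among the 5 matched called genes only in that of Elovl5, at 161 bases before the start. A sterol regulatory element, ATCACNCCAC, was found in none of the 54 promoters and in 0.192% of all, and the spaced repeat of the nuclear receptor half-site, AGGTCANAGGTCA, in none of the 54 and in 0.0335% of all. These are matches of letters within a short window and describe no binding.

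In fatty acid synthesis and desaturation, 7 of 10 measured genes were tested, 2 were higher in CR, 1 was lower and 4 were not called. The called share was 42.9%, against 17.1% of all genes tested, and so few genes give no result about the step. The called genes all extend or desaturate chains, as do Scd1 and Scd2, which were not called. Of the genes that do neither, only Acly and Me1 were tested, and neither was called. Acaca and Acacb were below the filter, so these calls do not set chain modification apart from earlier synthesis. Elovl5 (chr9:77917364-77984519), an elongase of polyunsaturated fatty acids, had 21.3, 12.9, 14.7, 24.8 and 22.3 normalized counts in CR mice, against 30.5, 39.0, 76.0 and 63.8 in ad libitum-fed mice. Every CR mouse lay below every ad libitum-fed mouse, although the ad libitum-fed mice spread widely. The means were 19.2 ± 5.11 (SD, n = 5) in CR and 52.3 ± 21.2 (SD, n = 4) in ad libitum-fed mice, a log2 fold change of -1.35 (SE 0.32, adjusted p = 0.00692).

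Elovl1 (chr4:118428093-118432953), which extends saturated and monounsaturated chains to very long ones, had 136, 90.5, 111, 178 and 119 normalized counts in CR mice, against 79.0, 76.0, 87.6 and 70.7 in ad libitum-fed mice. The groups did not overlap, but CR mouse 2 came close to ad libitum-fed mouse 4. The log2 fold change was 0.66 (SE 0.21, adjusted p = 0.0424), from 127 ± 32.8 (SD, n = 5) in CR and 78.3 ± 7.09 (SD, n = 4) in ad libitum-fed mice. This call lay just inside the threshold. It was kept without CR mouse 2 (adjusted p = 0.0235) and lost without any other single mouse, namely CR mouse 1, 3, 4 or 5 or ad libitum-fed mouse 2, 3, 4 or 5 (adjusted p 0.0558 to 0.113). The last 1000 bases of Elovl1 overlap the opposite-strand gene Cdc20 by 53 bases, and Cdc20 had 0 to 3.61 normalized counts in CR mice and 1.95 to 7.73 in ad libitum-fed mice. Whether counting used the strand is not given in the sources used here. Of the 52 genes, 7 have an exon of another gene over their last 1000 bases, namely Elovl1, Srebf1, Acsl5, Agpat2, Abhd5, Acadvl and Etfb.

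Fads1 (chr19:10182888-10196877), the delta-5 desaturase of polyunsaturated fatty acids, had 35.8, 32.3, 51.7, 41.3 and 53.2 normalized counts in CR mice, against 38.6, 9.74, 14.2 and 10.3 in ad libitum-fed mice. Ad libitum-fed mouse 2 stood among the CR mice and the other ad libitum-fed mice lay well below them. The log2 fold change was 1.39 (SE 0.36, adjusted p = 0.0125). Fads1 thus differed in the opposite direction to Elovl5, with which it shares the polyunsaturated pathway. Fads2, the delta-6 desaturase of that pathway, was below the filter, with 0.97 to 4.85 normalized counts in CR mice and 0 to 10.3 in ad libitum-fed mice.

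Within a library, the ratio of Elovl1 to Elovl5 was 5.35 to 7.52 in CR mice and 1.11 to 2.59 in ad libitum-fed mice. The 5 CR mice lay close together in this ratio, and the groups were far apart. It is given as a description, since both genes were already called, and as a comparison between mice rather than between the levels of the genes.

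The remaining genes of synthesis were not called. Acly had 36.1 to 52.9 normalized counts in CR mice and 28.4 to 63.8 in ad libitum-fed mice (log2 fold change -0.13, SE 0.26, adjusted p = 0.791). Scd1, the stearoyl-CoA desaturase that makes oleate, had 16.4, 20.2, 19.99, 23.8 and 42.0 in CR mice and 26.9, 11.7, 3.87 and 32.8 in ad libitum-fed mice (log2 fold change 0.64, SE 0.48, adjusted p = 0.404). The values of the diets lay within each other. Scd2, a second stearoyl-CoA desaturase, had a log2 fold change of -0.06 (SE 0.52, adjusted p = 0.958), and Me1, the malic enzyme that supplies NADPH, of 0.74 (SE 0.41, adjusted p = 0.236). The acetyl-CoA carboxylases Acaca and Acacb, which commit acetyl-CoA to synthesis and make the malonyl-CoA that inhibits carnitine palmitoyltransferase, were below the filter. Acaca had 3.23 to 11.2 normalized counts in CR mice and 1.72 to 14.2 in ad libitum-fed mice, and Acacb had 6.76 to 11.3 in CR mice and 5.39 to 9.74 in ad libitum-fed mice.

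Neither tested transcription factor of lipid synthesis was called. Srebf1, the factor that drives fatty acid synthesis, had 42.9 to 63.8 normalized counts in CR mice and 39.5 to 54.1 in ad libitum-fed mice (log2 fold change 0.25, SE 0.23, adjusted p = 0.503). Srebf2, which mainly drives sterol synthesis, had 29.1 to 55.8 in CR mice and 24.1 to 62.4 in ad libitum-fed mice (log2 fold change 0.09, SE 0.29, adjusted p = 0.861). Mlxipl, which encodes the carbohydrate-responsive factor ChREBP, was below the filter and uneven, with 12.6, 13.7, 0.59, 2.58 and 1.72 in CR mice and 0.90, 17.5, 2.58 and 0 in ad libitum-fed mice.

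Acyl-CoA synthetases activate fatty acids for either fate, and neither tested gene was called. Acsl5 had 34.8 to 55.8 normalized counts in CR mice and 21.9 to 48.3 in ad libitum-fed mice (log2 fold change 0.37, SE 0.27, adjusted p = 0.388). Acsl4, which prefers arachidonate, had 11.4 to 30.6 in CR mice and 10.3 to 18.9 in ad libitum-fed mice (log2 fold change 0.16, SE 0.39, adjusted p = 0.823). Acsl1 and Acsl3 were below the filter, and Acsl3 had the smallest exact two-sided permutation p of the 9 genes left out by it (p = 0.0635, with 0.0159 the smallest the 126 assignments of mice allow), at 8.08 to 12.4 normalized counts in CR mice and 2.58 to 9.74 in ad libitum-fed mice.

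In triglyceride synthesis and droplet coating all 8 measured genes were tested, Plin2 was higher in CR, Dgat1 was lower and 6 were not called. The called share was 25.0%, against 17.1% of all genes tested. Dgat1 (chr15:76502015-76511953), a diacylglycerol acyltransferase that completes the triglyceride, had the smallest p of the list. It had 43.5, 42.8, 38.2, 62.0 and 42.9 normalized counts in CR mice, against 147, 175, 226 and 207 in ad libitum-fed mice. The highest CR mouse lay far below the lowest ad libitum-fed mouse. The means were 45.9 ± 9.23 (SD, n = 5) in CR and 189 ± 34.6 (SD, n = 4) in ad libitum-fed mice, a log2 fold change of -2.02 (SE 0.22, adjusted p = 2.82e-06). Dgat2, the other enzyme of this reaction, ranged from 0.97 to 31.7 in CR mice and from 5.85 to 32.3 in ad libitum-fed mice, and was not called (log2 fold change -0.73, SE 0.68, adjusted p = 0.51). In a mixture of cells, fewer cells of a type and less RNA per cell cannot be told apart. T cell and mast cell markers were lower in the same libraries as Dgat1 and Elovl5, and their part in these results was not tested.

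Plin2 (chr4:86648386-86670060), the perilipin that coats lipid droplets in most cell types, had 184, 239, 315, 250 and 256 normalized counts in CR mice, against 142, 97.4, 60.6 and 82.8 in ad libitum-fed mice. The groups did not overlap, and the lowest CR mouse and the highest ad libitum-fed mouse were the nearest pair. The means were 249 ± 46.9 (SD, n = 5) in CR and 95.6 ± 34.3 (SD, n = 4) in ad libitum-fed mice, a log2 fold change of 1.42 (SE 0.23, adjusted p = 0.000292). Plin3, a second droplet coat of most cells, had 21.8 to 39.6 in CR mice and 24.2 to 45.1 in ad libitum-fed mice (log2 fold change -0.07, SE 0.28, adjusted p = 0.893). The ratio of Plin2 to Plin3 was 5.0 to 14.5 in CR mice and 1.34 to 5.85 in ad libitum-fed mice, overlapping only through CR mouse 1 and ad libitum-fed mouse 2.

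The summed adipocyte markers overlapped between the diets. Their sum was 58.2 to 277.9 in CR libraries and 55.4 to 212.7 in ad libitum libraries, Adipoq, the fat cell hormone adiponectin, was at 0 to 3.1 in CR and 0 to 1.72 in ad libitum libraries, and of 4 tested markers only Lpl, the lipoprotein lipase, was called, as higher in CR (log2 fold change 1.22, adjusted p = 0.0327). The other tested markers, Cfd, Car3 and Fabp4, were not called, with log2 fold changes of -2.18, -0.43 and 0.00 and adjusted p values of 0.103, 0.825 and 0.997. Plin4, another droplet coat of fat cells, had 2.35 to 9.66 normalized counts in CR mice and 0 in each of the 4 ad libitum-fed mice, where a count of 0 allows 2.69 to 5.85. Other markers below the filter did not separate the diets. Retn and Adig were also at 0 in each ad libitum-fed mouse, but at 0 to 9.29 and 0 to 4.85 in CR mice. Pparg had 2.35 to 15.4 in CR mice and 1.72 to 14.4 in ad libitum-fed mice. The acyltransferases and phosphatidate phosphatases of earlier triglyceride synthesis were not called. Lpin2 had 10.5 to 45.5 normalized counts in CR mice and 9.02 to 32.8 in ad libitum-fed mice (log2 fold change 0.24, SE 0.42, adjusted p = 0.751). Agpat2, Agpat3 and Lpin1 had log2 fold changes of -0.20 (adjusted p = 0.772), 0.89 (adjusted p = 0.172) and -0.63 (adjusted p = 0.315). The summed level of the step was 330.5 to 470.1 in CR libraries and 374.1 to 439.6 in ad libitum libraries, which overlapped.

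No gene of lipolysis was called among 4 tested. Pnpla2, adipose triglyceride lipase, had 51.7 to 78.1 normalized counts in CR mice and 57.4 to 77.6 in ad libitum-fed mice (log2 fold change -0.20, SE 0.22, adjusted p = 0.579). G0s2, the protein inhibitor of that lipase, had 24.2, 16.2, 25.3, 26.8 and 28.3 in CR mice and 50.3, 62.4, 14.2 and 36.2 in ad libitum-fed mice (log2 fold change -0.57, SE 0.37, adjusted p = 0.316). Ad libitum-fed mice 2, 3 and 5 lay above all CR mice and ad libitum-fed mouse 4 lay below them. Mgll, which releases the last fatty acid from monoglyceride, had 30.0, 24.2, 11.2, 22.2 and 12.0 in CR mice and 8.98, 3.90, 5.15 and 13.8 in ad libitum-fed mice, and had the smallest adjusted p of the genes not called (log2 fold change 1.26, SE 0.45, adjusted p = 0.0636). Lipe, the hormone-sensitive lipase, had 4.29 to 16.2 in CR mice and 0 to 20.6 in ad libitum-fed mice and was not called (adjusted p = 0.748), and Abhd5, the co-activator of Pnpla2, was below the filter. The ratio of Dgat1 to Pnpla2, which act on the triglyceride in opposite directions, was 0.549 to 1.19 in CR mice and 2.56 to 3.43 in ad libitum-fed mice, while Pnpla2 itself was not called. Dgat1 was already called, so this ratio is given only as a description.

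**Figure D2:**
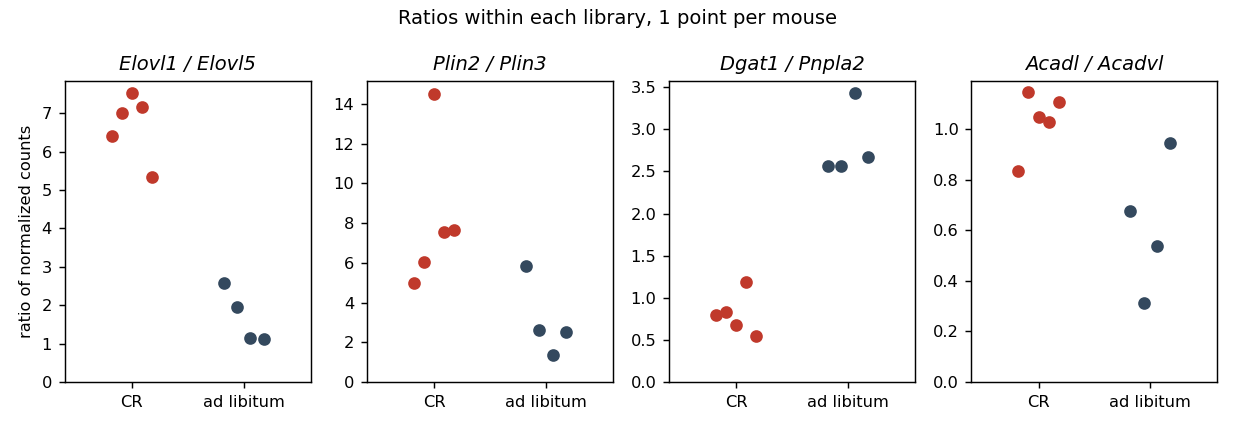
Ratio of normalized counts of 2 genes within each library (y axis, linear, from 0) for 4 pairs, with 1 point per CR mouse (left) and per ad libitum-fed mouse (right). Elovl1 to Elovl5 and Dgat1 to Pnpla2 separate the diets without overlap, and Plin2 to Plin3 and Acadl to Acadvl overlap. Each pair holds a gene that was already called, so the ratios are descriptions.

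Of the PPAR genes, Angptl4 was higher in CR and the other 2 tested were not called. Angptl4 (chr17:33773750-33781830), a secreted inhibitor of lipoprotein lipase and a classical PPAR target, had the largest log2 fold change of the list. It had 299, 447, 153, 237 and 261 normalized counts in CR mice, against 53.9, 27.3, 47.7 and 112 in ad libitum-fed mice. CR mice ranged widely among themselves, and each lay above the highest ad libitum-fed mouse. The means were 279 ± 108 (SD, n = 5) in CR and 60.2 ± 36.4 (SD, n = 4) in ad libitum-fed mice, a log2 fold change of 2.29 (SE 0.33, adjusted p = 9.29e-05). Lpl, the enzyme it inhibits, was called higher in the same mice.

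Pdk4, the pyruvate dehydrogenase kinase that spares glucose and is another PPAR target, had 53.1, 53.3, 34.7, 17.0 and 17.2 normalized counts in CR mice and 19.8, 11.7, 12.9 and 17.2 in ad libitum-fed mice (log2 fold change 1.0, SE 0.38, adjusted p = 0.0806). CR mice 1, 2 and 3 lay above all ad libitum-fed mice, and CR mice 4 and 5 lay among them. Ppard, the receptor PPAR delta, had 15.5 to 41.8 in CR mice and 10.8 to 37.9 in ad libitum-fed mice (log2 fold change 0.48, SE 0.37, adjusted p = 0.412). Among 9 tested further PPAR targets and partners, none was higher and only Ucp2, a mitochondrial carrier, was lower in CR. Ucp2 had 267, 210, 183, 128 and 87.5 normalized counts in CR mice, against 381, 391.6, 314 and 309 in ad libitum-fed mice (log2 fold change -1.08, SE 0.26, adjusted p = 0.00655). Hilpda, a hypoxia-inducible droplet protein on that list, was not called (log2 fold change 0.25, adjusted p = 0.507), and neither was Fabp4, the fatty acid-binding protein of adipocytes (log2 fold change 0.00, adjusted p = 0.997). Beside Angptl4, no tested gene of the PPAR step or of that list was called higher in CR. PPARs also switch on genes of storage and oxidation, so these counts do not cover all their targets. Genes of storage and oxidation were counted under other steps. There Plin2, Cpt1c and Acadl were called higher and Dgat1 was called lower. The other tested genes of those steps, among them Cpt1a, Acadm and Acadvl, were not called. A part of PPARs in these values was not tested.

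In the carnitine shuttle 4 genes were tested and Cpt1c was higher in CR. Cpt1c (chr7:44959372-44974851), a palmitoyltransferase isoform described mainly in brain and located at the endoplasmic reticulum, had 25.1, 32.3, 16.5, 24.8 and 32.6 normalized counts in CR mice, against 17.95, 5.85, 5.15 and 6.90 in ad libitum-fed mice. Ad libitum-fed mouse 2 stood just above CR mouse 3, and the other ad libitum-fed mice lay below all CR mice. The log2 fold change was 1.57 (SE 0.40, adjusted p = 0.0103), from 26.3 ± 6.64 (SD, n = 5) in CR and 8.96 ± 6.03 (SD, n = 4) in ad libitum-fed mice. The ad libitum values rest on few molecules, 3 to 20 counts per library.

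Cpt1a, the isoform that limits mitochondrial entry in most tissues, was not called. It had 53.1, 31.5, 21.8, 17.6 and 18.9 normalized counts in CR mice and 13.5, 23.4, 12.9 and 27.6 in ad libitum-fed mice (log2 fold change 0.49, SE 0.37, adjusted p = 0.402). Only CR mice 1 and 2 lay above all ad libitum-fed mice. The carnitine-acylcarnitine carrier Slc25a20 had 6.86 to 16.0 in CR mice and 3.90 to 15.5 in ad libitum-fed mice (log2 fold change 0.50, SE 0.48, adjusted p = 0.524), and the inner-membrane enzyme Cpt2 had 1.93 to 14.1 in CR mice and 1.95 to 19.0 in ad libitum-fed mice (log2 fold change -0.08, SE 0.64, adjusted p = 0.951).

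Beta-oxidation held the most genes, and 1 of 13 tested (7.69%, against 17.1% of all genes tested), Acadl, was called. Acadl (chr1:66830839-66863277), the long-chain acyl-CoA dehydrogenase, had 54.1, 78.4, 49.4, 62.5 and 72.1 normalized counts in CR mice, against 37.7, 21.4, 36.1 and 29.3 in ad libitum-fed mice. The groups did not overlap. The means were 63.3 ± 12.1 (SD, n = 5) in CR and 31.1 ± 7.42 (SD, n = 4) in ad libitum-fed mice, a log2 fold change of 1.01 (SE 0.25, adjusted p = 0.00943). The dehydrogenases of other chain lengths were not called, with log2 fold changes of 0.19 for Acadvl (very long), -0.44 for Acadm (medium) and -0.73 for Acads (short) and adjusted p values of 0.671, 0.476 and 0.405. The ratio of Acadl to Acadvl was 0.836 to 1.15 in CR mice and 0.314 to 0.945 in ad libitum-fed mice.

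Electron transfer genes were not called either. Etfb, the beta subunit of the electron transfer flavoprotein, had 83.1, 107, 61.1, 58.8 and 72.1 normalized counts in CR mice, against 51.2, 39.0, 49.0 and 55.2 in ad libitum-fed mice, which did not overlap, but it missed the threshold (log2 fold change 0.62, SE 0.24, adjusted p = 0.0801). Its partner subunit Etfa had 69.5 to 83.6 in CR mice and 47.6 to 79.3 in ad libitum-fed mice (log2 fold change 0.29, SE 0.22, adjusted p = 0.406). The other enzymes of the spiral, Hadh, Hadhb, Echs1, Acaa1a, Acaa2 and Eci1, and the oxidoreductase Etfdh, had log2 fold changes of -0.46 to 0.51 and adjusted p values of 0.344 to 0.964. Ehhadh, of the peroxisome, and Decr1, which handles unsaturated chains, were below the filter, at no more than 10.3 normalized counts in any library. Over both oxidation steps 2 of 17 genes (11.8%), Cpt1c and Acadl, were higher and none was lower. Cpt1c is counted here because it was listed with the carnitine shuttle, although it is located at the endoplasmic reticulum and not in mitochondria. Among all genes tested, 7.98% were higher and 9.14% lower, and so few genes give no result about oxidation as a whole. The median log2 fold change was 0.29, against 0.07 over all genes tested. The summed level of beta-oxidation was 461.0 to 695.8 in CR libraries and 457.7 to 541.2 in ad libitum libraries.

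**Figure D3:**
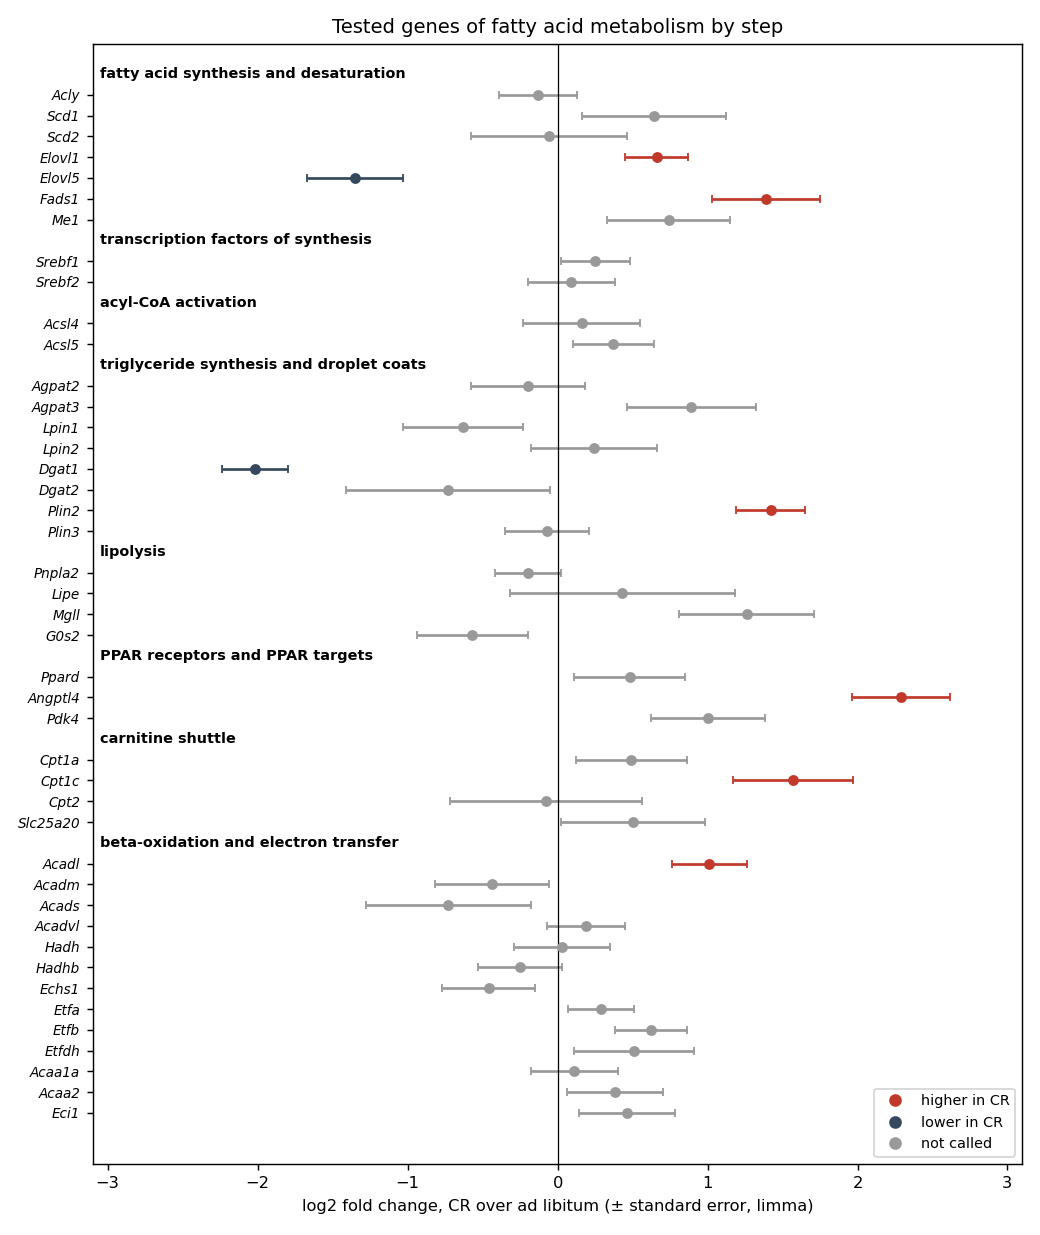
Log2 fold change of CR over ad libitum (x axis, on log2(normalized count + 1), bars are the limma standard error) for the 43 tested genes, grouped by step from synthesis to oxidation. Coloured points mark the 6 genes called higher and the 2 called lower in CR, which belong to synthesis (Elovl5) and triglyceride storage (Dgat1). All 4 genes of lipolysis were not called.

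Further genes of the same pathways were read from lists that, like the members, were drawn up with earlier results of these data known. Of 11 other synthesis genes tested, Hacd1, a dehydratase of chain elongation, was higher in CR, with 56.05, 38.8, 41.8, 37.7 and 43.8 normalized counts in CR mice against 21.5, 1.95, 12.9 and 41.4 in ad libitum-fed mice (log2 fold change 1.65, SE 0.52, adjusted p = 0.0366). Ad libitum-fed mouse 5 lay within the CR values. None of 5 other storage and lipolysis genes and none of 19 other oxidation genes was called in either direction. Among all genes tested, 17.1% were called, and lists this short give no result about a pathway. The medians of these lists were 0.02, 0.05 and 0.11 on the log2 scale, near the 0.07 of all genes. In sterol synthesis, Pmvk, which encodes phosphomevalonate kinase, was lower in CR (log2 fold change -1.17, SE 0.39, adjusted p = 0.0441), and the other 6 tested genes were not called.

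The summed fibroblast markers overlapped between the diets, at 10924 to 13660 in CR and 5887 to 11328 in ad libitum libraries. Dcn, the largest of them, was called higher in CR (log2 fold change 0.70, adjusted p = 0.00473), and Col1a1, Col1a2 and Col3a1 were not called. Scaling by this sum left Dgat1, Elovl5, Plin2 and Angptl4 called in the same direction, with log2 fold changes of -2.53, -1.85, 0.90 and 1.78 and adjusted p values of 2.19e-07, 0.00106, 0.0187 and 0.000259. It ended the calls of Elovl1, Fads1, Cpt1c and Acadl, with log2 fold changes of 0.14, 0.89, 1.09 and 0.50 and adjusted p values of 0.759, 0.147, 0.0929 and 0.303. That scaling lowered the median of all genes by 0.50 on the log2 scale. With limma-voom on recovered counts, Elovl1 (adjusted p = 0.0676), Fads1 (adjusted p = 0.0747) and Cpt1c (adjusted p = 0.112) were not called. DESeq2 and edgeR each called the same 8 genes.

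**Figure D4:**
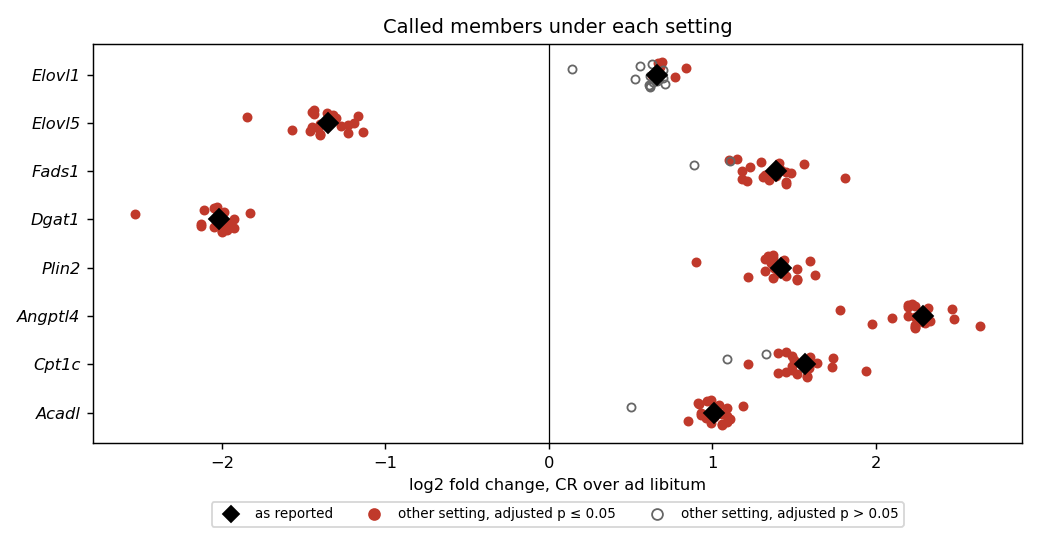
Log2 fold change of CR over ad libitum (x axis) of the 8 called genes as reported (diamonds) and under 23 other settings (22 for Cpt1c) of scaling, filtering, test or left-out mouse (circles, filled where the adjusted p was at most 0.05). Elovl5, Dgat1, Plin2 and Angptl4 were called under all 23, and Elovl1 under 9. The fit without CR mouse 1 is counted a second time, as the comparison for the replicate block.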

How the data were processed

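Expression was measured by a bulk MARS-Seq protocol with 1 library per mouse. The authors trimmed reads with cutadapt, aligned them to mm10 with STAR, removed duplicates by molecular identifier, counted with HTSeq over 1000 bases at the 3′ ends of RefSeq genes, corrected for identifier saturation and normalized with DESeq2 (versions not given in the sources used here). Deposited values are this normalized signal, counts divided by size factors, for 11063 genes. In every library 100% of the values above 0 were whole multiples of 1 step within 0.006, so that whole counts were recovered. A count of 0 allows 3 counts, for counting error only. No 2 libraries of a diet were duplicates (smallest chi-square per degree of freedom 5.43 in CR and 3.70 in ad libitum).

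Groups came from the sample titles. The main test was limma 3.58.1 (R 4.3.3, trend) on log2(value + 1) with Benjamini-Hochberg adjustment, called at 0.05, over 6815 genes that held 10 or more normalized counts in 4 or more libraries. Genes below the filter were compared by exact two-sided permutation tests (scipy 1.17.1). Alternatives were DESeq2 1.42.0, edgeR 4.0.16 and limma-voom on recovered counts, other scalings, thinning to 382877 counts, filters, pseudocounts, thresholds, a replicate block and leaving out each mouse. The fit was checked on simulated counts. Positions are from GENCODE release 21 for mouse (GRCm38). The members and lists were chosen with earlier results of these data known. Each called gene is given with all values, the others by range and count, with values for the 2 highest per step; values of Mgll, Dgat2, Mlxipl, Fads2, Acaca, Acacb, Acsl3, Lipe and Cpt2 were added after they had been seen. Of other pathway lists the called genes are named, and Hilpda, Fabp4, Lpl, Cfd, Car3, Plin4, Retn, Adig and Pparg were added after their values were seen. The study's other experiments were not analysed here.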

Additional observations from a re-analysis of the deposited data

Results flagged for a closer look

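In 9 of 104 groups of values (each of the 52 genes in each diet) a single mouse lay apart from the others of its diet by Dixon's criterion, where 1 in 20 groups, or 5.2 here, would be flagged by chance. Fads1, Cpt1c and Dgat1 among them were called. Ad libitum-fed mouse 2 stood high both in Fads1, with 38.6 normalized counts against 9.74 to 14.2 in the other ad libitum-fed mice, and in Cpt1c, with 17.95 against 5.15 to 6.90. Without that mouse the log2 fold change was 1.81 for Fads1 (adjusted p = 0.00101) and 1.94 for Cpt1c (adjusted p = 0.00352). In Dgat1, CR mouse 4 had 61.95 normalized counts against 38.2 to 43.5 in the other CR mice, still below the lowest ad libitum-fed mouse.

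The other flags fell on genes that were not called or not tested. CR mouse 5 had 42.03 normalized counts of Scd1 (others 16.4 to 23.8), 78.06 of Pnpla2 (others 51.7 to 56.5) and 6.86 of Slc25a20 (others 13.5 to 16.0). CR mouse 3 had 30.58 of Acsl4 (others 11.4 to 15.4). Ad libitum-fed mouse 3, the shallowest library, had 23.38 of Agpat2 (others 14.4 to 15.5) and 17.54 of Mlxipl (others 0 to 2.58).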

How the results depend on the processing

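There were 23 other settings, of which 9 left out a mouse, and each tested gene was refitted under those in which it passed the filter, 16 for Lipe and 21 to 23 for the others. The fit without CR mouse 1 is counted a second time among them, as the comparison for the replicate block. In no setting did a called gene turn its direction. The number of genes higher in CR was 6, against 2 under fibroblast-list scaling, 9 under upper-quartile scaling and 3 with limma-voom or at an adjusted p of at most 0.01. Without 1 mouse it was 5 to 6, and the number lower was 2 to 3. Upper-quartile scaling called Etfb, Mgll and Pdk4 in addition, leaving out CR mouse 4 or 5 added Pdk4, leaving out ad libitum-fed mouse 5 added Mgll, and leaving out ad libitum-fed mouse 4 or scaling by fibroblast markers added G0s2, as lower. Elovl1 was also lost under library-size scaling (adjusted p = 0.089) and thinning (adjusted p = 0.0615). Cpt1c was not tested at 30 normalized counts. Uncalled values changed sign 55 times in 18 genes. Over all genes, lower genes were 53.4% of the calls, 94.6% under fibroblast-list and 33.5% under upper-quartile scaling, which moved the median by -0.50 and 0.18 on the log2 scale. Without ad libitum-fed mouse 4 there were 335 higher and 360 lower calls over all genes, against 544 and 623 with all mice. On recovered counts DESeq2 called 533 higher and 871 lower among 11063 genes, and edgeR 457 and 660 among 6815. With the replicate number as a block, without CR mouse 1, 5 genes were higher and 2 lower, as without the block in the same 8 libraries, and Elovl1 was lost in both (adjusted p = 0.103 and 0.0905). Same-numbered mice did not deviate together (r -0.071 to 0.044), and no CR library correlated best with its own number. The 9 genes below the filter rest on low counts, and no difference was detected for them. The smallest exact permutation p was 0.0635. DESeq2 and the fit without a filter, which tested all 52 genes, called none of them. Whether depth or low expression limits these genes was not tested.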

Other observations

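Single genes differed widely among CR mice, and those named here were picked after their values had been seen, with no test. Pdk4 had 53.1, 53.3, 34.7, 17.0 and 17.2 normalized counts in CR mice 1 to 5, Cpt1a had 53.1, 31.5, 21.8, 17.6 and 18.9, and Ucp2 had 267, 210, 183, 128 and 87.5. Pdk4 and Cpt1a were lowest in CR mouse 4, and Ucp2 in CR mouse 5. Among the other genes of oxidation, Eci1 (54.1, 47.7, 40.6, 44.9 and 31.7), Hadhb (33.8, 29.9, 25.9, 28.9 and 19.7) and Acaa2 (83.1, 107, 55.3, 67.6 and 36.9) were highest in CR mouse 1 or 2 and, like Ucp2, lowest in CR mouse 5. Others differed from this. Acadl was highest in CR mouse 2 (78.4) and CR mouse 5 (72.1), and Cpt1c in CR mouse 5 (32.6) and CR mouse 2 (32.3). The summed markers of pericytes and smooth muscle were 332.5, 312.0, 175.2, 69.2 and 83.2 in CR mice 1 to 5, most of which was Des, and those of macrophages and monocytes were 173.0, 328.1, 249.9, 72.8 and 53.2, most of which was Cd14. Other markers of these lists differed from that order, such as Cd68 (1.93, 1.62, 7.64, 7.23 and 10.29) and Cspg4 (7.73, 17.8, 1.76, 1.55 and 8.58).

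Dgat2 had 0.97, 4.85, 12.4, 19.1 and 31.7 normalized counts in CR mice 1 to 5. Lpin2 (20.3, 10.5, 21.8, 30.5 and 45.5) and Agpat3 (19.3, 23.4, 18.8, 33.0 and 34.3) were likewise highest in CR mice 4 and 5. Other genes of triglyceride storage differed from this, with Plin2 highest in CR mouse 3 and Lpin1 in CR mouse 2. The summed adipocyte markers were 111.1, 114.0, 58.2, 223.0 and 277.9 in the same mice. Fabp4 made up most of these sums, while Lpl, the called marker, had 34.8, 33.1, 19.99, 25.3 and 15.4. The part of differing cell mixtures in these values was not tested.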
